A study of Mus musculus and Homo sapiens with 15 samples.

Results

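The V(D)J recombinase genes Rag1, Rag2 and Dntt were followed through tumours treated with arsenic trioxide (ATO). The 3 genes were picked by symbol, out of 52340 genes listed for the W/W mice and 56691 for the C57 grafts, and each symbol had 1 row per list. They were picked for how their CPM (read counts scaled to the size of the library) differed between the groups described next, so their own levels are given as a description, with no test. All 3 passed the filter on low counts in both systems, which 18119 and 15468 genes passed.

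The study compared T-lymphoma transcriptomes with and without ATO. W/W mice are homozygous for the R282W mutation of p53, an allele that the water controls carry too, and every W/W library came from a thymus tumour taken at day 150 after birth. The groups were water (n = 3), ATO with a progressing tumour (n = 3) and ATO with a regressing tumour (n = 3), so treatment and outcome cannot be told apart in a comparison of either ATO group with water. Tumours labelled as a CDX model, that is grafted cells, were taken from C57 mice with a wild-type genotype label after ATO (n = 2) or the buffer PBS (n = 2). The labels do not name the grafted cells or their p53 state, and the libraries also hold RNA of host cells. The human line U937, of myeloid leukaemia origin and made to express p53 R282W, gave 1 PBS and 1 ATO library. Nothing in the labels says whether libraries of a group share an origin beyond the group, so p-values measure the spread between these samples.

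Rag1 and Rag2 encode the lymphocyte-specific recombinase that cuts antigen receptor gene segments at recombination signal sequences. The cut ends are joined by the general non-homologous end joining machinery, and Dntt encodes terminal deoxynucleotidyl transferase, a polymerase that adds bases without a template at the junctions. In the thymus, the RAG genes are known for a first period of expression in CD4-CD8- cells that rearrange the T-cell receptor beta chain and a further period in CD4+CD8+ cells that rearrange the alpha chain, and they are shut off as T cells mature.

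Total counts ranged from 12800367 to 17550594 in the W/W libraries and from 12922147 to 15637644 in the graft libraries. Among the W/W libraries 2 stood apart by mitochondrial share and adipocyte markers. The mitochondrial share of counts was 8.83% in progressing replicate 2 and 8.48% in regressing replicate 3, against 2.08% to 4.86% in the other W/W libraries, and summed CPM of 8 adipocyte markers was highest in these libraries of their groups (1366 and 5242 CPM). Water replicate 2 stood apart in other ways, with the fewest genes detected among the W/W libraries (21372). Its 6 erythroid markers summed to 943 CPM, against 21.1 and 20.4 CPM in the other water libraries. The T-lineage gene Cd3e, which encodes a chain of the T-cell receptor complex, had between 1420 and 5300 counts in every W/W library and between 7388 and 9583 in every graft library. In bulk tissue, fewer cells of a type and less RNA per cell cannot be told apart.

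Rag1 (ENSMUSG00000061311) and Rag2 (ENSMUSG00000032864) lie next to each other in convergent orientation on GRCm38 chromosome 2, Rag1 at chr2:101638282-101649501 on the minus strand and Rag2 at chr2:101624718-101632529 on the plus strand. Dntt (ENSMUSG00000025014) lies at chr19:41029275-41059525 on the plus strand. The 250 bases before each gene's start are shown because the 3 genes moved together from a near-zero level in the water tumours. They are from RefSeq on GRCm38.p6, at chr2:101649533-101649782 (minus strand), chr2:101624462-101624711 (plus strand) and chr19:41029025-41029274 (plus strand). Capitals mark every E box (CANNTG, the site type of E proteins such as the Tcf3 product), CCAAT box (CCAAT) and Runx-type motif (TGTGGT), each searched on both strands.
Rag1: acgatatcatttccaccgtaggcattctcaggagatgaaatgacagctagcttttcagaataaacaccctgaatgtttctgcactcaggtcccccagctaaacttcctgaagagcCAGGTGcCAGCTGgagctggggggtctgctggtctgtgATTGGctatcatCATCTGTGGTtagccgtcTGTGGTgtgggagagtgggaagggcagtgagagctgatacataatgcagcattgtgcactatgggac
Rag2: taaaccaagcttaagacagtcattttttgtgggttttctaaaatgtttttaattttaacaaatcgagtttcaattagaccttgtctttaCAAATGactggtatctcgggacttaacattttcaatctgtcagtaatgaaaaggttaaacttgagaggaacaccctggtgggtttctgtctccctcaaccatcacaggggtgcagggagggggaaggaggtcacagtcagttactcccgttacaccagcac
Dntt: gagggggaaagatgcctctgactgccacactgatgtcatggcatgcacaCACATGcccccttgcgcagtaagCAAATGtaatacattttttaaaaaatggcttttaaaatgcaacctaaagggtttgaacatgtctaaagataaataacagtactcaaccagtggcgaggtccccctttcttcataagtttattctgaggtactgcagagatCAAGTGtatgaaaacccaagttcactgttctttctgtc
The Rag1 sequence holds 3 E boxes, 1 CCAAT box read on the reverse strand and 2 Runx-type motifs, the first of which overlaps an E box. The Rag2 sequence holds 1 E box and the Dntt sequence 3, so of the motifs searched the E box was found in all 3. Of 32851 promoter sequences of this length, 66.2% hold an E box, 33.8% a CCAAT box and 14% a Runx-type motif. GGAAG (Ets type, in 64.1% of promoters) was found 2 times in Rag1 and 1 time in Rag2, TGGGAA (Ikaros type, 21.6%) 1 time in Rag1, and GATAA (GATA type, 22.6%) 1 time in Dntt. TATAAA, the TATA box (12.4%), was in none of these windows. These are letter matches and not measured binding sites, and these libraries hold no measurement of binding.

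Rag1 was close to absent in the water tumours and among the most abundant transcripts in the regressing ones. The water libraries had 33, 30 and 10 Rag1 counts (2.12, 2.29 and 0.616 CPM). The progressing libraries had 9583, 3052 and 18859 counts (590, 257 and 1383 CPM), and the regressing libraries 53295, 48074 and 22844 counts (3290, 3386 and 1503 CPM). Every ATO library therefore lay above every water library, and the lowest regressing library lay 1.09-fold above the highest progressing library. By FPKM, the authors' value per exonic length, Rag1 ranked 35, 41 and 145 among all genes of the regressing libraries, 521, 1853 and 167 in the progressing libraries and no higher than 15442 in the water libraries.

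Group means of Rag1 were 1.68 ± 0.921 CPM (SD, n = 3) in water, 743 ± 578 in progressing and 2726 ± 1060 in regressing tumours. The ratio of means was 444 for progressing against water and 1628 for regressing against water. Regressing tumours had 3.67 times the progressing mean, a log2 ratio of 1.88 that was 1.47 without progressing replicate 2, 2.69 without progressing replicate 3 and 2.17 without regressing replicate 3. The largest relative spread was within the progressing tumours (coefficient of variation 77.8%, against 38.9% in the regressing ones).

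In water libraries Rag2 had 6, 1 and 0 counts (0.386, 0.0762 and 0 CPM), where 3 counts would be 0.202 CPM on average. Counts were 1247, 70 and 711 in the progressing libraries (76.7, 5.90 and 52.2 CPM) and 4803, 4127 and 2167 in the regressing libraries (297, 291 and 143 CPM). The groups did not overlap, and the progressing libraries were the most unequal, with replicate 2 far below the others. Group means were 0.154 ± 0.205 CPM in water, 44.9 ± 36.0 in progressing and 243 ± 87.2 in regressing tumours (SD, n = 3 each). Because the water group had 7 Rag2 counts in all, the ratio of the regressing mean to water (1579) has a 95% counting interval from 757 to 3880, and that of the progressing mean (292) an interval from 140 to 717. These intervals cover counting only, and the values rest on water replicate 1, without which the log2 ratios went from 10.62 to 12.64 and from 8.19 to 10.2. Regressing tumours had 5.41 times the progressing mean, a log2 ratio of 2.44, which was 1.92 without progressing replicate 2 and 2.71 without regressing replicate 3.

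In water libraries Dntt had 18, 43 and 6 counts (1.16, 3.28 and 0.370 CPM). It had 12825, 5113 and 5235 counts in the progressing libraries (789, 431 and 384 CPM) and 19215, 17817 and 10293 in the regressing libraries (1186, 1255 and 677 CPM). Both ATO groups lay above water in every library, but here the ATO groups overlapped, since progressing replicate 1 was above regressing replicate 3. Group means were 1.60 ± 1.5 CPM in water, 535 ± 222 in progressing and 1039 ± 316 in regressing tumours (SD, n = 3 each), ratios to water of 334 and 649. Without water replicate 2 the log2 ratios went from 8.38 to 9.45 and from 9.34 to 10.41. The regressing mean was 1.94 times the progressing mean (log2 ratio 0.96, and 0.83 without progressing replicate 2 or 1.19 without regressing replicate 3). Per exonic length Dntt ranked 31, 35 and 106 in the regressing libraries, beside Rag1, and 105, 333 and 213 in the progressing libraries, above Rag1 in the first 2 and below it in the third.

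All 3 genes had ATO groups that did not overlap water, a pattern that 19.3% of tested genes showed upward in regressing and 11.9% in progressing tumours. Against each other, regressing tumours lay wholly above progressing ones for Rag1 and Rag2 but not for Dntt, where 21.4% of tested genes did so. These contrasts chose the genes, so nothing is read from the shares.

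**Figure D1:**
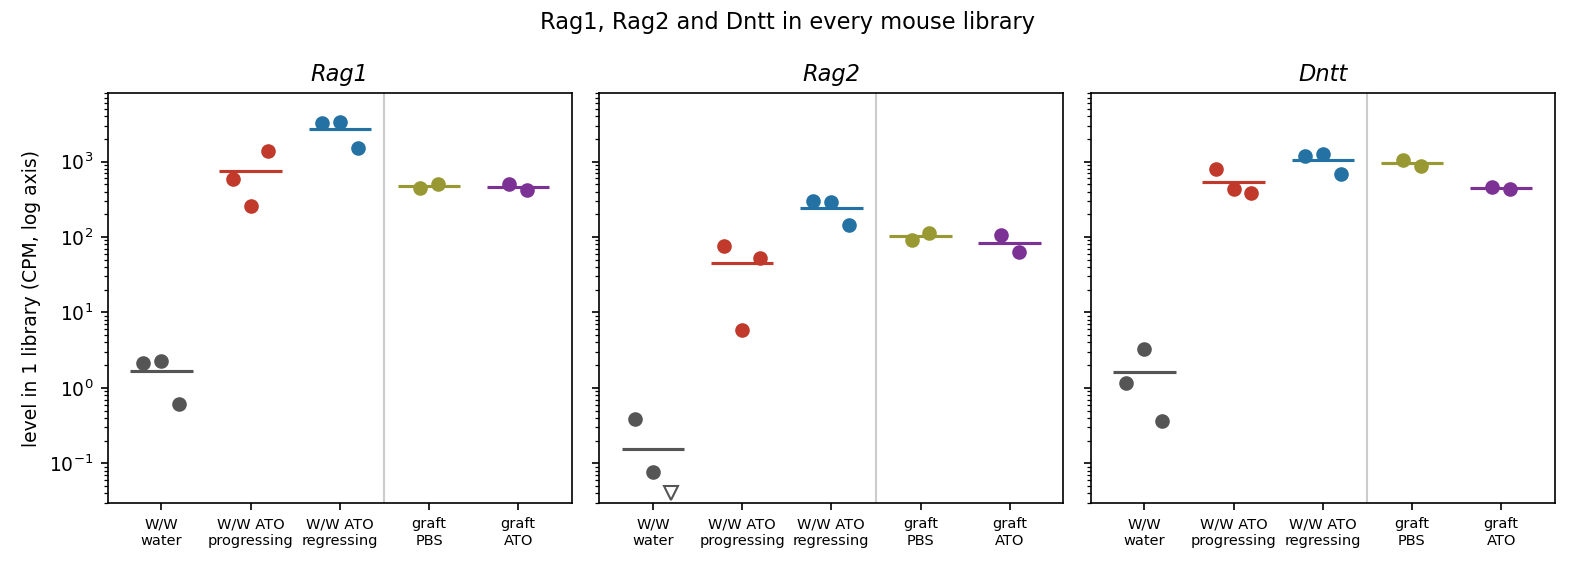
Level of Rag1, Rag2 and Dntt in each library (CPM, log axis) for the 3 W/W groups and, after the grey line, the 2 graft groups, whose table was scaled separately. Points are libraries in replicate order and bars are group means, and the open triangle at the bottom of the Rag2 panel is a library with 0 counts, drawn at an arbitrary height. Each water library lies at or below 3.28 CPM and each ATO library of W/W mice at or above 5.90 CPM.

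In the grafts all 3 genes were expressed with or without ATO, and Dntt stood apart from the RAG genes. Rag1 had 6118 and 7455 counts after PBS (445 and 500 CPM) and 6916 and 6469 after ATO (509 and 425 CPM). Rag2 had 1270 and 1665 counts after PBS (92.3 and 112 CPM) and 1428 and 960 after ATO (105 and 63.0 CPM). Both RAG genes thus overlapped between the treatments, and their log2 ratios of means, -0.02 and -0.28, took the opposite sign when a single library was left out. Dntt had 14508 and 13049 counts after PBS (1054 and 875 CPM) and 6283 and 6643 after ATO (463 and 436 CPM). The ATO mean of 449 ± 18.8 CPM (SD, n = 2) was 0.466 times the PBS mean of 964 ± 127, a log2 ratio of -1.10, with no overlap. Of the genes tested in the grafts, 30% lay lower and 31.7% higher after ATO with no overlap. With library totals in place of TMM scaling, the Dntt log2 ratio was -0.91 while the median gene moved from 0.04 to 0.23, and Rag1 stood at 0.17. The mitochondrial share of counts was 0.521% and 1.02% after PBS and 5.98% and 4.03% after ATO, and its part in these values was not tested.

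The levels therefore ran from water up to regressing tumours for each gene, and the graft levels fell within or above the span of the progressing tumours. For Rag1 the grafts (425 to 509 CPM) lay within the progressing range, for Rag2 the grafts (63.0 to 112 CPM) overlapped it, and for Dntt the PBS grafts lay above it and the ATO grafts within it. The tables were scaled separately, so this order across them is approximate.

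Within a library, ratios of counts per exonic base do not depend on scaling. The Rag1 to Rag2 ratio was nearly constant in the regressing tumours, at 5.75, 6.04 and 5.46. It was 3.98, 22.6 and 13.7 in the progressing tumours, so the RAG genes did not move in step there. The grafts had lower ratios, 2.5 and 2.32 after PBS and 2.51 and 3.49 after ATO. Water ratios rest on 6, 1 and 0 Rag2 counts and are not read.

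The Dntt to Rag1 ratio showed a like contrast between uniform and uneven groups. It was 1.04, 1.07 and 1.30 in the regressing tumours, 3.86, 4.83 and 0.80 in the progressing tumours and 1.57, 4.13 and 1.73 in the water tumours. Progressing replicate 3, with the highest Rag1 level of its group, held less Dntt than Rag1 per base, whereas the other 2 progressing libraries held more Dntt than Rag1 per base. In the grafts the ratio was 6.84 and 5.05 after PBS and 2.62 and 2.96 after ATO, with no overlap.

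**Figure D2:**
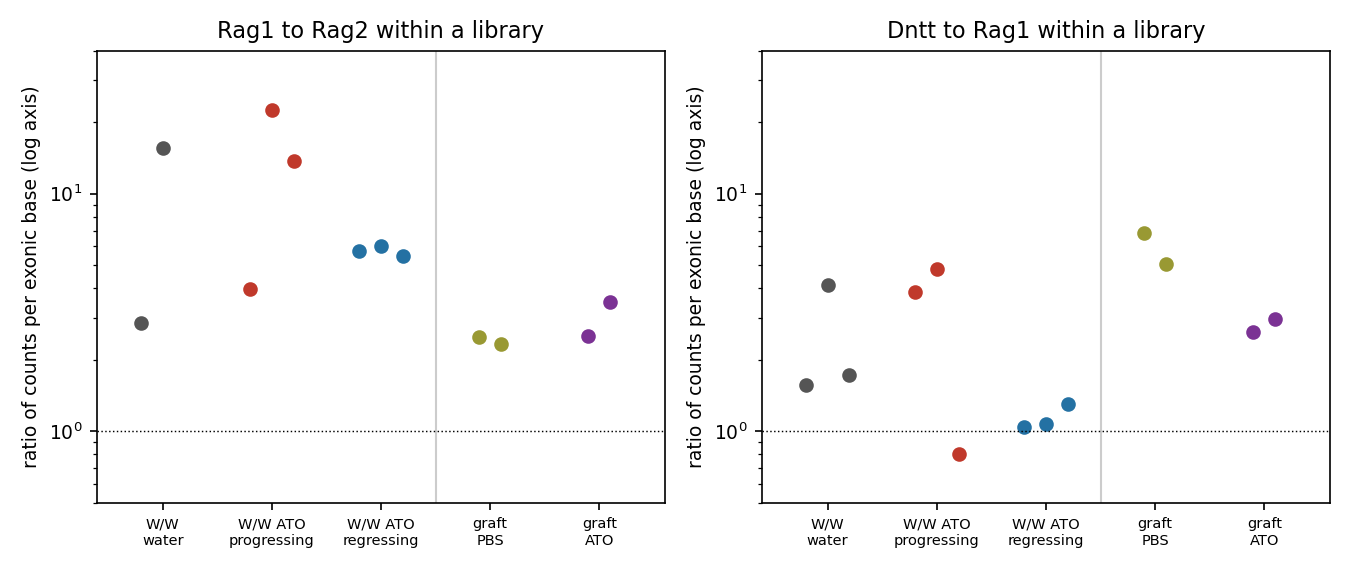
Ratio of counts per exonic base within each library (log axis) for Rag1 to Rag2 on the left and Dntt to Rag1 on the right, with the dotted line at equal levels. Points are libraries, and the water library with 0 Rag2 counts has no Rag1 to Rag2 ratio. The 3 regressing libraries sit close together in both panels (5.46 to 6.04 and 1.04 to 1.30), and the 3 progressing libraries are spread out.

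Set against Cd3e, the members kept their separation of water from both ATO groups. Division by Cd3e could not have undone it, so these ratios are a description and add no separate support. The smallest gap between a water and an ATO library was 15.3-fold (Rag2, progressing), while Cd3e ranged from 1420 to 5300 counts. Rag1 per Cd3e was 0.00676, 0.0130 and 0.00168 in the water tumours, 2.18, 0.687 and 3.82 in the progressing and 6.21, 6.51 and 4.6 in the regressing tumours. Dntt per Cd3e was 8.42, 3.32 and 3.06 in the progressing and 6.45, 6.95 and 5.97 in the regressing tumours, and these groups overlapped. Rag2 per Cd3e lay between 0.0304 and 0.548 in the progressing and between 0.841 and 1.08 in the regressing tumours. Cd3e itself did not pass the test in any contrast, with log2 fold changes of 0.24 (progressing against water, adjusted p = 0.705), 0.69 (regressing against water, 0.222), 0.45 (regressing against progressing, 0.391) and -0.15 (graft ATO against PBS, 0.69) by edgeR. In the grafts Dntt per Cd3e was 2.70 and 3.14 after PBS and 1.40 and 1.59 after ATO.

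Per base of Cd8a, a coreceptor gene of CD4+CD8+ and CD8+ cells, the Rag1 ratio was 0.838 to 0.983 in the regressing, 0.201 to 1.09 in the progressing and at most 0.0311 in the water tumours. Per base of Ptcra, which encodes the pre-T-cell receptor alpha chain of cells at the beta-chain checkpoint, Rag1 stood at 38.8, 33.0 and 25.2 in the regressing tumours and at 1.29, 24.7 and 9.0 in the progressing tumours. In the grafts it was 0.490 and 1.18 after PBS and 1.44 and 3.19 after ATO, which overlaps the progressing range but not the regressing one.

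**Figure D3:**
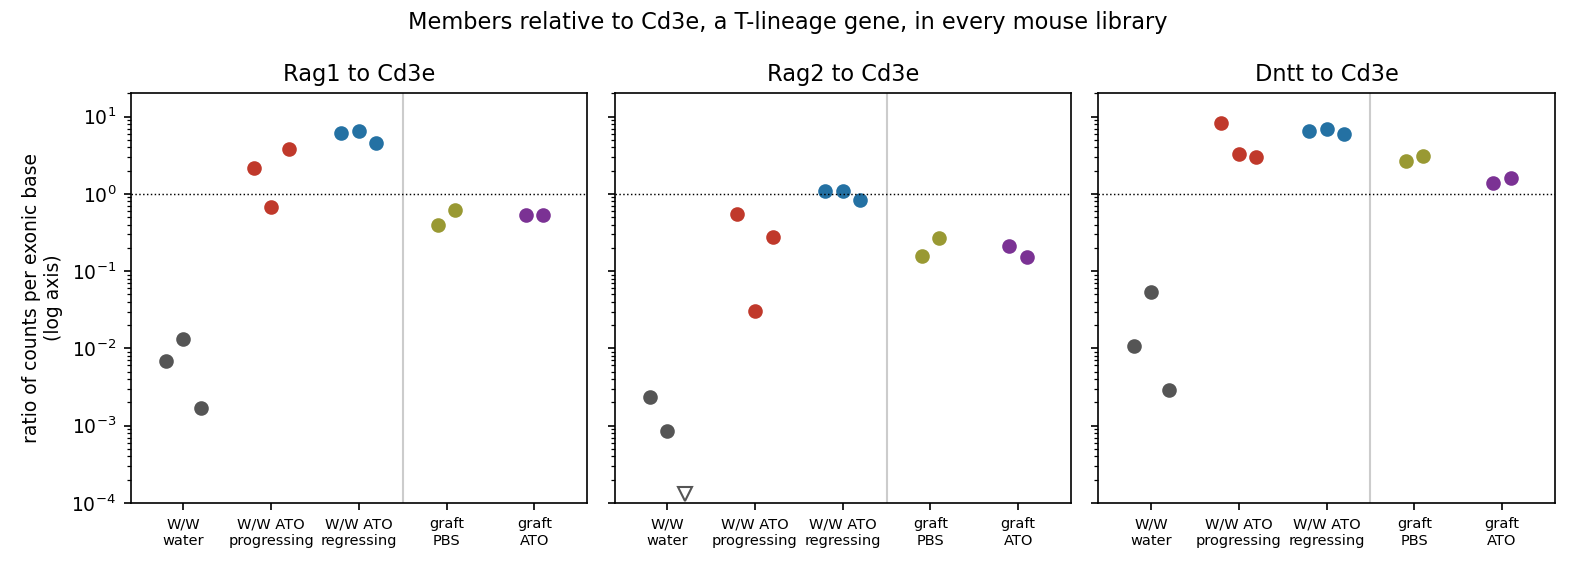
Counts per exonic base of Rag1, Rag2 and Dntt divided by those of Cd3e in the same library (log axis), with the dotted line at equal levels. Points are libraries and the open triangle is the water library with 0 Rag2 counts, drawn at an arbitrary height. In each panel the water libraries lie below the progressing and regressing ones, at most 0.0130 for Rag1, 0.00237 for Rag2 and 0.0539 for Dntt, against at least 0.687, 0.0304 and 3.06.

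The genes that act with the recombinase were tested next, in a list of 21 RAG partners and end joining genes. Lig4, the ligase of end joining, was the gene of the list that rose in both ATO groups. It stood at 12.5 ± 2.45 CPM (SD, n = 3) in water, 103 ± 38.6 in progressing and 96.2 ± 27.0 in regressing tumours. The edgeR log2 fold changes were 3.04 for progressing tumours (SE 0.389, adjusted p = 0.00221) and 2.95 for regressing tumours (SE 0.388, adjusted p = 0.00502), higher in 3 of 3 libraries each, and both calls held with any 1 library left out. Between the ATO groups Lig4 had a log2 fold change of -0.10 (adjusted p = 0.877).

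In regressing tumours against water, 1 of the 21 genes rose and 1 fell, where 3.13% of all tested genes rose and 4.57% fell (7.7% in either direction). The gene that fell was Xrcc5, the larger Ku subunit (-1.68, SE 0.355, edgeR adjusted p = 0.0232), and this call was lost without water replicate 2 or any 1 of the regressing replicates. The median log2 fold change of the list was -0.30, beside -0.12 for all tested genes. Prkdc, the end joining kinase, had 0.04 (adjusted p = 0.955).

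In progressing tumours 3 of the 21 rose and 1 fell, where 4.77% and 7.13% of all tested genes did. Xrcc6, the smaller Ku subunit, went from 144 ± 107 CPM in water to 1105 ± 405 (log2 fold change 2.94, SE 0.526, edgeR adjusted p = 0.00834), and this call held with any 1 library left out. Nbn, a subunit of the complex that senses DNA breaks, rose by 1.47 (adjusted p = 0.0454), a call kept in 1 of 6 fits that leave out a library. Poll, a template-dependent polymerase of the same family as Dntt, fell by 3.10 (adjusted p = 0.0191), a call lost without progressing replicate 1. The list median was 0.21, beside -0.04 for all tested genes.

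Between regressing and progressing tumours, 0 of the 21 rose and 2 fell (background 6.45% and 6.18%, or 12.6% in all). These were Nbn (-2.47, SE 0.434, edgeR adjusted p = 0.0125), lost without regressing replicate 1 or 2, and Rad50 (-1.20, SE 0.307, adjusted p = 0.0336), kept in 1 of 6 such fits. In the grafts 4 of 20 tested genes rose after ATO and 1 fell (background 7.37% and 6.57%). Those that rose were Prkdc (1.14, adjusted p = 0.0195), Atm (1.5, 0.0233), Trp53bp1 (0.95, 0.0304) and Dclre1c, the Artemis nuclease (1.03, 0.0431). Hmgb2, a DNA-bending cofactor of RAG cutting, fell by 0.84 (edgeR adjusted p = 0.0232). None of these 5 calls held without PBS replicate 1, and those of Dclre1c, Hmgb2 and Trp53bp1 were also lost without ATO replicate 1. The Hmgb2 call was lost with library totals too. The other polymerases related to Dntt, Polm and Polb, passed in no contrast, with log2 fold changes from -0.87 to 1.26.

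The regulators form a list of 23 transcription factor genes known to act on the RAG or Dntt loci or on T-lineage development. In regressing tumours 5 of 23 rose and 0 fell, beside 3.13% and 4.57% of all tested genes. In progressing tumours 5 rose and 1 fell, beside 4.77% and 7.13%. Bcl11b, a T-lineage commitment factor, went from 76.3 ± 32.1 CPM in water to 531 ± 127 in regressing (log2 fold change 2.80, SE 0.423, edgeR adjusted p = 0.00888) and 217 ± 63.1 in progressing tumours (1.51, SE 0.405, adjusted p = 0.0369). Gfi1, a transcriptional repressor, rose by 1.84 (adjusted p = 0.014) and 1.79 (adjusted p = 0.00869) in regressing and progressing tumours. Myb, an activator in thymocytes, rose by 2.71 (adjusted p = 0.0169) and 2.09 (adjusted p = 0.0251). Runx1, a gene of the Runx family, rose by 1.29 (adjusted p = 0.0344) and 1.88 (adjusted p = 0.00626).

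Other members of the list passed in a single contrast. Satb1, a chromatin organiser of thymocytes, rose in regressing tumours, from 156 ± 151 to 1866 ± 496 CPM (3.58, SE 0.696, edgeR adjusted p = 0.0183). Tcf12, the E protein HEB, rose in progressing tumours (1.88, adjusted p = 0.00626), where Id3, an inhibitor of E proteins, fell by 2.42 (adjusted p = 0.0255). Whether these genes differed between the ATO groups is a separate test, which only Egr1, an early response gene, passed (2.16, SE 0.498, adjusted p = 0.0252), and that call was kept in 1 of 6 fits that leave out a library. Tcf3, the E2A gene, passed nowhere, with -0.27, 0.20, -0.47 and -0.24 in regressing against water, progressing against water, regressing against progressing and the grafts (adjusted p from 0.489 to 0.821). In the grafts 0 of 22 tested regulators rose and Id2, an E-protein inhibitor, fell by 1.17 (adjusted p = 0.036). The regressing calls depended on single libraries, since 1 of the 5 was left without regressing replicate 1 (Bcl11b) and 0 without regressing replicate 2, and that of Runx1 was also lost without any 1 water library. In progressing tumours Tcf12, Runx1 and Gfi1 passed in all 6 fits that leave out a library, Id3 in 4, Myb in 3 and Bcl11b in 1. The graft call of Id2 was lost without PBS replicate 2 or ATO replicate 2, with library totals and with the replicate number as a block in the fit. With the compared groups alone in the fit, the progressing calls of Id3, Myb and Bcl11b were lost, as were those of Poll and Nbn above.

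**Figure D4:**
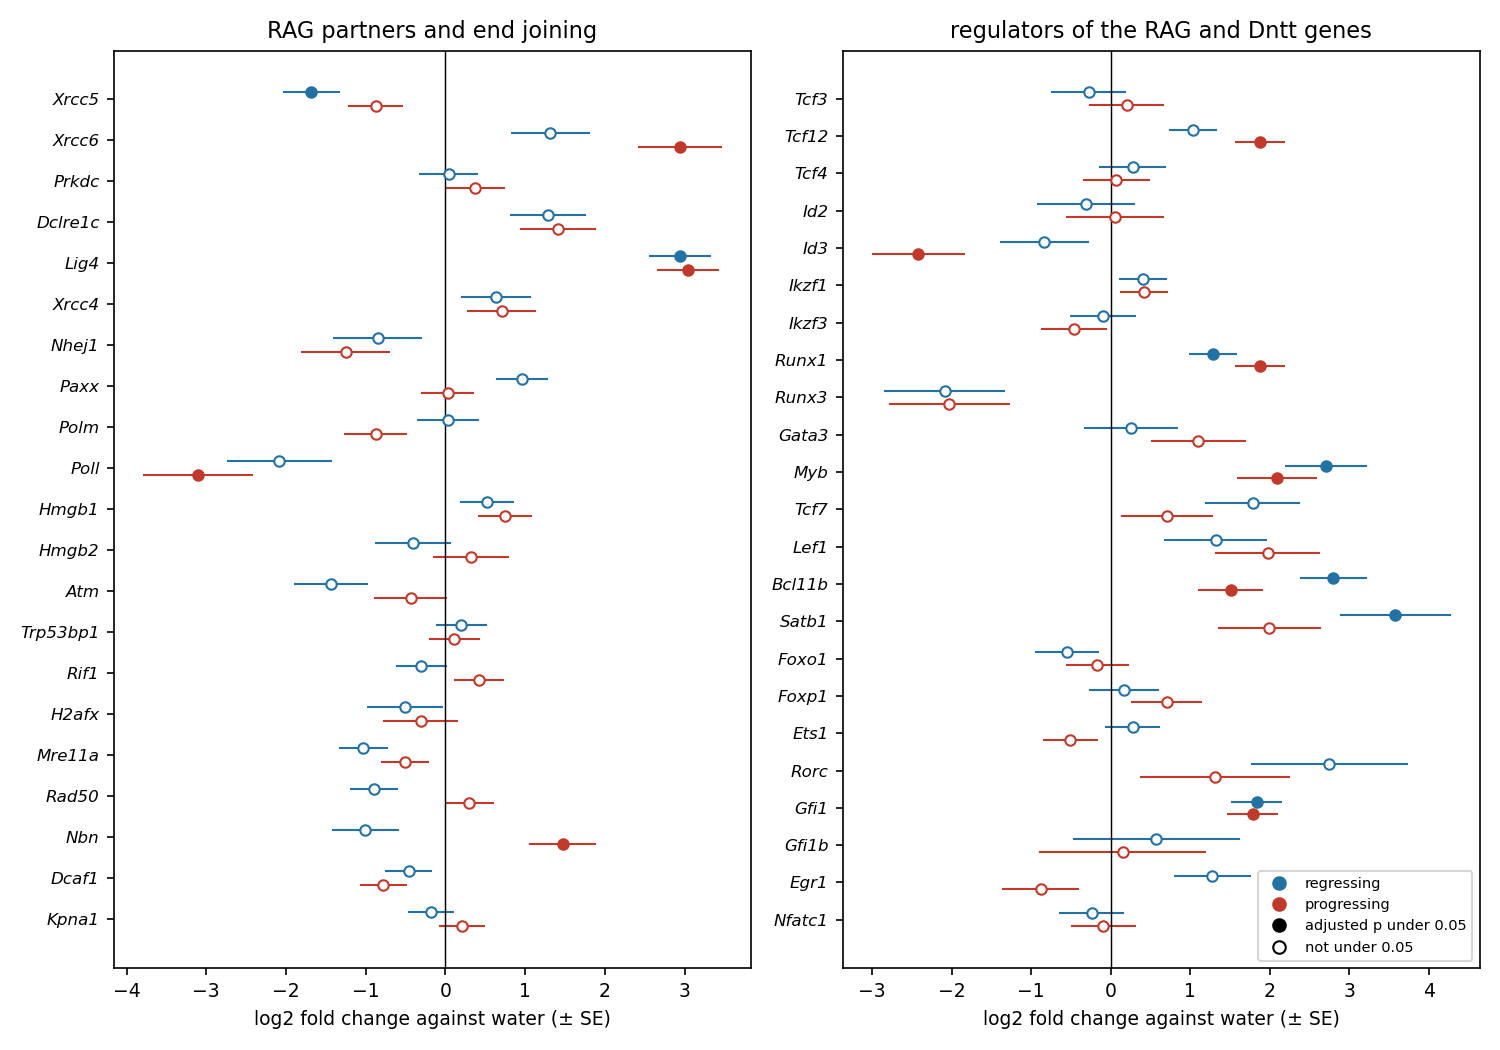
Log2 fold change against water with its SE (edgeR) for the 21 RAG partners and end joining genes on the left and the 23 regulators on the right, for regressing (blue) and progressing (red) tumours. Filled points have an adjusted p under 0.05. Lig4 is filled for both groups on the left, at 2.95 and 3.04, and most of the other partners lie nearer to 0 with open points.

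Chains of the receptor complex and receptor constant regions, which the recombinase does not itself cut, were tested as a further list. Of 12 pre-T-cell receptor, receptor and CD3 chain genes, 3 rose in regressing tumours, and 2 rose and 1 fell in progressing tumours. Between the ATO groups 0 passed (2 at an unadjusted p under 0.05 by edgeR, 1 by DESeq2 after adjustment). Of all tested genes, 3.13% rose in regressing tumours, and 4.77% rose and 7.13% fell in progressing tumours. Between the ATO groups 12.6% passed, and in the grafts 6.57% fell. Ptcra counts were 2, 0 and 1 in water, 1440, 24 and 407 in progressing and 267, 283 and 176 in regressing libraries. Against a floor of 3 counts per library it was at least 199-fold higher in progressing (edgeR adjusted p = 0.00493, and at least 78.9-fold without progressing replicate 1) and at least 79.1-fold higher in regressing tumours (adjusted p = 0.014). Cd247, the CD3 zeta chain, rose by 2.31 in regressing (adjusted p = 0.0106) and 1.44 in progressing tumours (adjusted p = 0.0282). Trdc, the delta constant region, rose in regressing tumours (8.66, SE 2.16, adjusted p = 0.0389), a call lost when any 1 library was left out, and Trgc2, a gamma constant region, fell by 3.37 in progressing tumours (adjusted p = 0.0413). The regressing calls of Ptcra and Cd247 were lost without regressing replicate 1 or 2, and the progressing calls of Cd247 and Trgc2 were each kept in 1 of 6 fits that leave out a library. In the grafts Cd3d fell by 1.12 (adjusted p = 0.0104) and Ptcra by 1.45 (adjusted p = 0.0423, lost without PBS replicate 1, with library totals in place of TMM and with DESeq2).

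Markers of the CD4+CD8+ stage were tested as a list of 8 genes. Of these, 6 rose in regressing and 3 in progressing tumours, where 3.13% and 4.77% of all tested genes did, with list medians of 3.25 and 1.78. The regressing count was 3 without regressing replicate 1 or 2, and the progressing count was 6 without water replicate 2. Arpp21, an RNA-binding protein gene of CD4+CD8+ thymocytes, had 14, 9 and 5 counts in water, 3935, 2657 and 2425 in progressing and 5931, 6342 and 3918 in regressing libraries (edgeR log2 fold changes 8.40, adjusted p = 7.91e-05, and 9.13, adjusted p = 4.36e-05). Aqp11, an aquaporin gene, rose by 6.0 (adjusted p = 0.0024) and 8.39 (adjusted p = 0.00203) and, as the only one of the 8, also passed between regressing and progressing tumours (2.38, adjusted p = 0.0377, kept in 1 of 6 fits that leave out a library). Cd4 rose by 2.32 (adjusted p = 0.0141) in progressing and 3.6 (adjusted p = 0.00684) in regressing tumours, and Cd8a by 3.28 (adjusted p = 0.0168, lost without regressing replicate 1 or 2) in regressing tumours, with 1.99 (adjusted p = 0.0519) in progressing tumours. In the grafts Cd4 rose by 1.06 (adjusted p = 0.0249, lost without PBS replicate 2) and Cd24a fell by 1.06 (adjusted p = 0.0104).

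Of 12 markers of the earlier CD4-CD8- stage, 1 rose and 2 fell in regressing tumours, and 2 rose and 5 fell in progressing tumours. The regressing counts are set beside 3.13% and 4.57% of all tested genes, and 0 of these 3 calls held without regressing replicate 1 or 2. The gene that rose there, Il2ra, was lost with any 1 library left out. The progressing counts are set beside 4.77% and 7.13%, and the number that fell was 1 without progressing replicate 3. Notch1, the receptor that drives T-lineage entry, rose by 3.73 in progressing tumours (edgeR adjusted p = 0.00515), and Lmo2, a gene of early progenitors, fell by 2.99 (adjusted p = 0.00983) there and by 2.78 (adjusted p = 0.0197) in regressing tumours. All 9 mature T-cell markers fell in progressing tumours (list median -4.13), among them Cd5 (-3.58, edgeR adjusted p = 0.00157) and Ms4a4b (-7.72, adjusted p = 0.00169). In regressing tumours 1 of 9 passed as lower, with a list median of -1.74 and 7 of 9 log2 fold changes negative. There 6 of 9 had an unadjusted p under 0.05 by edgeR, and 5 passed by DESeq2 after adjustment. Between the ATO groups 5 of 9 were higher in regressing than in progressing tumours. Over all tested genes, 7.13% fell in progressing and 4.57% in regressing tumours, and 6.45% were higher in regressing than in progressing ones. The 9 calls in progressing tumours were 5 without progressing replicate 3, the 1 in regressing tumours was lost without regressing replicate 1 or 2, and the 5 between the ATO groups were 2 without either of these. Their summed level was 1430 to 2477 CPM in water, 50.6 to 97.0 in progressing and 500 to 609 in regressing libraries.

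B-cell precursors also use the recombinase, so their markers were followed. Vpreb1, the surrogate light chain gene of pro-B and pre-B cells, stayed at or below 2.47 CPM in every mouse library and passed in no contrast. Of the 9 tested B-cell precursor markers, 6 fell in progressing (list median -5.47) and 3 in regressing tumours (-3.27). Over all tested genes 7.13% and 4.57% fell. The progressing number was 4 without progressing replicate 3, and the regressing one 0 without water replicate 2 or any 1 regressing replicate. Between the ATO groups 3 were higher in regressing tumours (6.45% of all tested genes), and 0 without progressing replicate 3 or regressing replicate 1 or 2. The summed level of the 11 B-cell precursor markers was 93.9 to 3371 CPM in water, 14.6 to 50.4 in progressing and 112 to 180 in regressing libraries. Vpreb1 adds at most 2.47 CPM to each sum, so the larger sums come mostly from other genes of the list.

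Markers of other cells are given beside these results. The summed level of 10 thymic epithelium markers was 175 to 1022 CPM in water, 52.3 to 118 in progressing and 1522 to 1721 in regressing libraries, and 3 of 10 rose in regressing tumours against water, among them Psmb11, a cortical epithelial proteasome gene (0.621 ± 0.367 against 65.0 ± 8.02 CPM, edgeR adjusted p = 0.00391). These 3 calls held with any 1 library left out. In progressing tumours against water 0 of 10 rose and 5 fell (2 without water replicate 3 or progressing replicate 1 or 3). Against progressing tumours 6 of 10 were higher in regressing ones (4 without progressing replicate 3 or regressing replicate 1 or 2). Over all tested genes, 3.13% rose in regressing and 7.13% fell in progressing tumours against water. Between the ATO groups 6.45% were higher in regressing tumours. Foxn1, the defining factor of thymic epithelium, had 27, 8 and 265 counts in water, 3, 4 and 4 in progressing and 230, 183 and 147 in regressing libraries, so that 1 water library lay above all regressing ones. Summed myeloid markers ranged from 1432 to 2185 CPM in water, from 219 to 1081 in progressing and from 373 to 785 in regressing libraries. Summed adipocyte markers ranged from 58.7 to 167, 125 to 1366 and 179 to 5242 CPM, in the same order. Of the 8 myeloid markers 1 fell in progressing tumours, where 7.13% of all tested genes did. In regressing tumours 0 passed (1 at an unadjusted p under 0.05 by edgeR, 1 by DESeq2 after adjustment). Of the 8 adipocyte markers 0 passed in progressing tumours (2 and 1 by the same measures). In regressing tumours 3 rose (8 and 7 by the same measures), beside 3.13% of all tested genes. None of these 3 calls held without water replicate 2 or regressing replicate 2. None of the 6 endothelial and 5 tested erythroid markers passed in a W/W contrast by edgeR or DESeq2, nor at an unadjusted p under 0.05 (0 in each). The part of these cell types in the levels of Rag1, Rag2 and Dntt was not tested.

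The neighbours of the members on the chromosome were examined for whether the change stopped at the RAG genes. Of the 4 other genes within 100 kb of Rag1 or Rag2, 3 were tested, and Gm20693 had at most 14 counts. B230118H07Rik (ENSMUSG00000027165, Iftap in RefSeq) overlaps both RAG genes, and 3 of its 12 GENCODE vM21 transcripts start at its outermost base, chromosome 2 position 101649532, which is also the RefSeq start of Rag1. It shares 80 of the 6608 exonic bases of Rag1 on the same strand (1.21%) and overlaps 208 of the 3424 exonic bases of Rag2 on the other strand (6.07%). How the authors' counting treated these bases is not given in the sources used here, so a part of its counts may belong to the RAG genes or the reverse.

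B230118H07Rik had 34, 38 and 55 counts in water, 1043, 430 and 2154 in progressing and 461, 375 and 352 in regressing libraries. It rose in both ATO groups, by 4.93 (SE 0.563, edgeR adjusted p = 0.00151) in progressing and 3.20 (SE 0.523, adjusted p = 0.0112) in regressing tumours, the latter lost without regressing replicate 1 or 2. Its order between the ATO groups was opposite to that of Rag1, with a log2 fold change of -1.73 in regressing against progressing (SE 0.487, adjusted p = 0.0436). This call was kept in 1 of 6 fits that leave out a library. It was lost with library totals in place of TMM and with the replicate number as a block in the fit. Per exonic base it stood at 0.168, 0.217 and 0.176 of Rag1 in the progressing and at 0.0133, 0.012 and 0.0237 of Rag1 in the regressing libraries. The progressing ratios were therefore alike although Rag1 itself ran from 257 to 1383 CPM among those libraries. In the grafts it had 1365 and 1361 counts after PBS and 794 in each ATO library (log2 fold change -0.78, adjusted p = 0.029, lost without PBS replicate 1 or ATO replicate 2 and with library totals).

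Genes farther out followed other patterns. Traf6, a signalling ubiquitin ligase gene 28.9 kb from Rag1, rose by 1.81 in progressing tumours (edgeR adjusted p = 0.0158) and had 0.78 (adjusted p = 0.203) in regressing tumours. Prr5l, 64.8 kb from Rag1, fell by 3.39 in progressing tumours (adjusted p = 0.0107) and was higher in regressing than in progressing tumours (3.76, adjusted p = 0.0124, lost without regressing replicate 1). Of the 3 genes within 100 kb of Dntt, Opalin and Tll2 had at most 2 and 6 counts in any W/W library and were not tested. Blnk, a B-cell adaptor gene 34.7 kb from Dntt, fell in progressing (-3.01, adjusted p = 0.0117) and regressing tumours (-2.34, adjusted p = 0.0365, kept in 1 of 6 fits that leave out a library), opposite to Dntt.

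**Figure D5:**
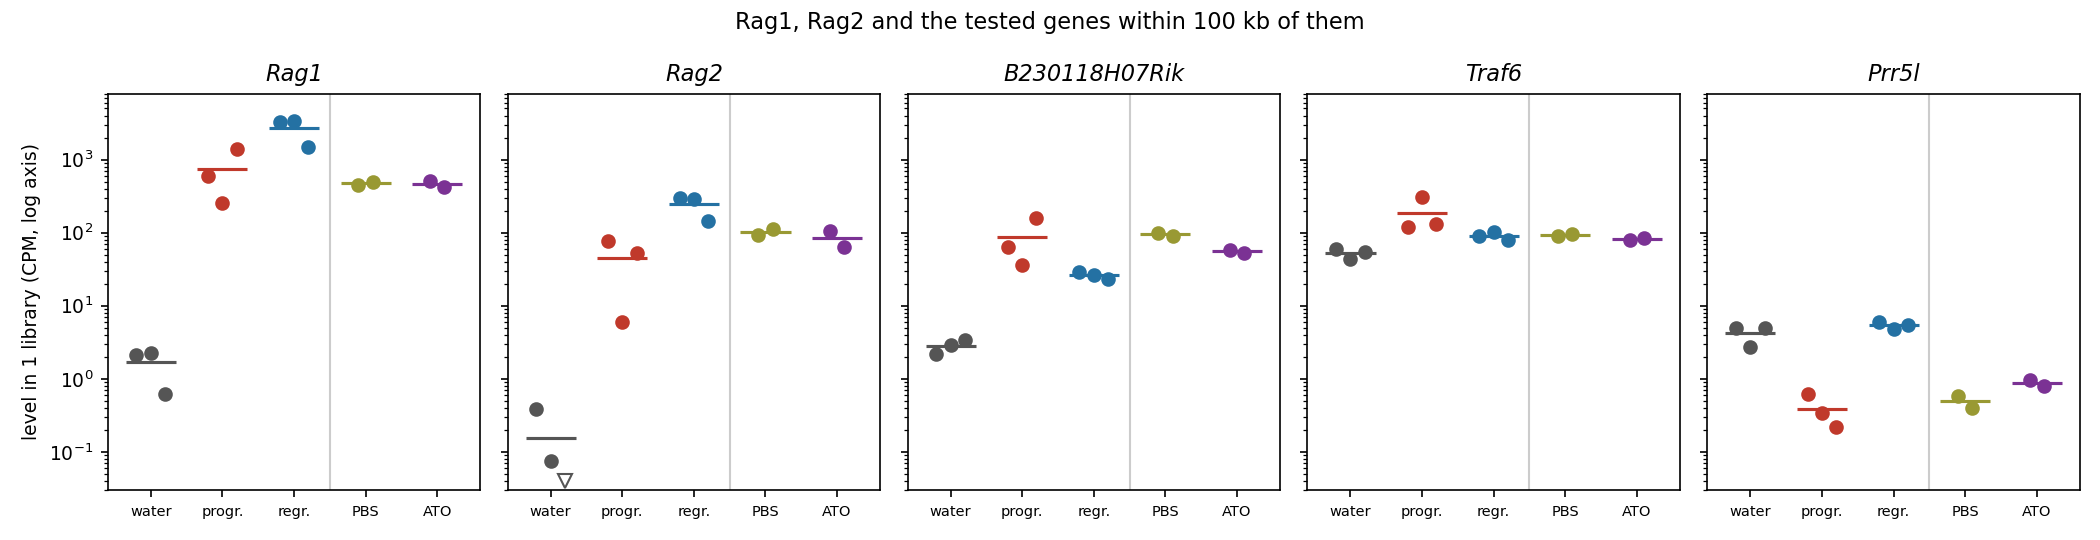
Level in each library (CPM, log axis) of Rag1, Rag2 and the 3 tested genes within 100 kb of them. Points are libraries, bars are group means, the grey line parts the W/W from the separately scaled graft libraries, and the open triangle is a library with 0 counts, drawn at an arbitrary height. Among the W/W groups B230118H07Rik is highest in the progressing libraries (86.1 CPM on average, against 26.0 in the regressing ones), unlike Rag1 and Rag2, and Prr5l is lowest there (0.391 CPM on average).

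Across the 9 W/W libraries the members' log2(CPM + 1) values correlated with each other, Rag1 with Dntt at Pearson's r = 0.981, Rag1 with Rag2 at 0.965 and Rag2 with Dntt at 0.926. These are descriptions, since the libraries fall into groups and the genes were chosen for this pattern. Among 14166 genes ranked by their correlation with the members' mean, the 10 most alike were Gas8, Nwd1, Glcci1, BC028471, Arpp21, Aqp11, Spindoc, Capn3, Mr1 and Chrna9, with r from 0.974 to 0.989, and 3 of them were among the first 10 by Spearman correlation. The size of the change from water varied widely among them. Gas8 had 6.89 ± 0.466 CPM in water, 12.3 ± 0.157 in progressing and 13.9 ± 0.836 in regressing tumours, and passed edgeR's test in neither contrast with water (adjusted p = 0.181 and 0.119), while Nwd1 went from 0.363 ± 0.235 to 22.9 ± 13.3 and 81.9 ± 28.0 CPM (SD, n = 3 each).

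Single members had their own closest genes. For Rag1 these were BC028471 (r = 0.989), Gas8 (0.987) and Chrna9 (0.986), for Rag2 Aqp11 (0.996), Glcci1 (0.989) and Nwd1 (0.989), and for Dntt Gas8 (0.996), Arpp21 (0.995) and Nim1k (0.983). In the grafts Aqp11 stood at 124 and 97.4 CPM after PBS and 82.0 and 59.0 after ATO, and Arpp21 at 295 and 292 after PBS and 339 and 183 after ATO, levels within or above the progressing means of 56.2 ± 37.7 and 215 ± 33.1 CPM.

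In U937, a line of another lineage, the recombinase genes were near the detection limit. RAG1 had 7 counts with PBS (0.392 CPM, 95% Poisson interval 0.157 to 0.807) and 15 with ATO (0.912 CPM, 0.51 to 1.5). RAG2 had 0 counts in both libraries (upper limits of the same interval 0.206 and 0.224 CPM), and DNTT had 0 and 2 counts. With 1 library per condition there is no test, and the RAG1 intervals overlap.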

How the data were processed

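RNA sequencing of mouse tumours and of U937 cells was analysed from the authors' gene tables. Each system has 1 table, in which the authors deposited unnormalized counts of reads for every gene beside FPKM values. Per the submitters' processing notes, reads went through FastQC 0.10.1, cutadapt 1.9.1 and HISAT2 2.0.1, with the mouse builds GRCm38 and mm10. Libraries were made with a SMARTer kit from TRIzol RNA, per the labels' protocols, whose text also holds a cell culture passage that does not describe tissue. How reads were counted, with or without strand, and on which annotation release is not given in the sources used here. Coordinates are those of the W/W table, in which 99.4% of genes had the start and end of GENCODE vM21 (GRCm38). No coordinates were taken from the graft table.

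The counts went through edgeR 4.0.16 under R 4.3.3 (filterByExpr, TMM, quasi-likelihood test, Benjamini-Hochberg adjustment over all genes tested, threshold 0.05). The 9 W/W libraries were fitted together as 3 groups and the 4 graft libraries alone. CPM used the TMM-scaled library size. Ranks and ratios of different genes used FPKM or counts per exonic base. Marker sums are in CPM, which does not correct for gene length, so they are read between libraries and not between lists. A gene with at most 3 counts in every library of a group is at the floor, and its fold is a lower bound. Counting intervals and floors leave out any error beyond counting, because these reads carry no molecular identifiers. Alternatives were DESeq2 1.42.0, library totals, no filter, the compared groups alone, a replicate block and leaving out each library. The edgeR steps were also run on simulated counts, for regressing against water and for the grafts only, and nothing is read from that run here.

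The genes and lists were chosen with earlier results of these data known. The text names the 3 smallest p-values in each direction among the genes called in the lists for RAG partners, regulators and receptor chains, and Cd3e, Ptcra, Cd4, Cd8a, Prkdc, Lig4, Tcf3 and Vpreb1 throughout; 1 further gene of that rule is not reported here. It also names neighbours within 100 kb, relatives of Dntt and the 10 genes most like the members, among genes of at least 1 CPM on average. Satb1, Runx1, Trp53bp1, Dclre1c and the named genes of the other lists fall outside that rule in part, and were named after their values were seen.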

Additional observations from a re-analysis of the deposited data

Results flagged for a closer look

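Dntt and Ptcra moved in opposite directions in the W/W tumours and in the grafts, every ATO library lying above every water library in the first and the ATO grafts below the PBS grafts in the second. For Dntt the log2 ratio of means was 8.38 in progressing and 9.34 in regressing tumours against water, and -1.10 in grafts with ATO against PBS. For Ptcra the corresponding bounds against the floor in water were 7.63 in progressing (at least 199-fold, and at least 78.9-fold without progressing replicate 1) and 6.31 in regressing tumours (at least 79.1-fold), and the graft value was -1.45. The graft call of Ptcra was lost without PBS replicate 1, with library totals and with DESeq2. Its regressing call was lost without regressing replicate 1 or 2. For Dntt the graft comparison is of 2 libraries with 2, where 30% of tested genes lay lower after ATO with no overlap. The difference between the systems was not tested, and the tables were scaled separately.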

How the results depend on the processing

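Over all 12 lists, 29 genes were called in regressing against water, 44 in progressing against water, 22 in regressing against progressing and 15 in the grafts. With no filter on low counts these counts were 62, 64, 46 and 32, and with DESeq2 52, 51, 29 and 25. A fit of the compared groups alone gave 29 in progressing against water. Leaving out each library gave 7 to 32, 26 to 45, 6 to 24 and 9 to 27 calls, in the same order, the lowest without regressing replicate 2, progressing replicate 3, regressing replicate 2 and PBS replicate 1. Over all genes the main counts were 1396, 2157, 2288 and 2157, or 7.7%, 11.9%, 12.6% and 13.9% of the genes tested. Leaving out a library gave 60 to 1190, 907 to 2557, 177 to 2000 and 685 to 2420. Among the 21 RAG partners the counts of calls, 2, 4, 2 and 5, ranged over the settings that keep all libraries from 2 to 5, 2 to 5, 1 to 4 and 3 to 7, and among the 23 regulators, at 5, 6, 1 and 1, from 5 to 11, 3 to 9, 1 to 5 and 0 to 3. In the grafts 52.9% of calls were upward, and 77.3% with library totals in place of TMM. The replicate block gave 24, 37, 20 and 10 calls; no label says what a replicate number marks, and same-numbered libraries did not deviate together. Pairing PBS 1 with ATO 2 and the reverse, chosen after seeing the data, gave 32.

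All log2 ratios of the members against water stayed positive. With the mean of log2(CPM + 1), Rag1 in regressing tumours stood at 9.97, Rag2 at 7.66 and Rag2 in progressing tumours at 4.74. Leaving out a library gave 10.27 to 10.96 for Rag1, 10.04 to 12.64 for Rag2 and 8.87 to 10.41 for Dntt in regressing tumours, and 7.98 to 9.20, 7.56 to 10.2 and 7.91 to 9.45 in progressing tumours, the highest Rag2 values without water replicate 1 and the highest Dntt values without water replicate 2. For regressing against progressing the ranges were 1.47 to 2.69, 1.92 to 3.07 and 0.77 to 1.35. In the grafts Rag1 was 0.17 with library totals and -0.15 to 0.11 with a library left out (0.07 without PBS replicate 2, 0.11 without ATO replicate 2). Rag2 was -0.69 to 0.0447, the latter without ATO replicate 2, and Dntt -0.91 with library totals and -1.23 to -0.96 with a library left out. Of the 10 genes most like the members, 3 stayed under Spearman correlation, 7 with log2(CPM + 0.1) and 5 to 10 with a library left out. Depth limits the water values, which rest on 73 Rag1, 7 Rag2 and 67 Dntt counts over 3 libraries.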
